A study of Drosophila melanogaster with 12 samples.

Results

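Sterile su(Hw)2/v ovaries were compared with fertile su(Hw)f/v ovaries of Drosophila melanogaster on expression arrays. The comparison used the 3 arrays of each genotype, chosen by their titles, which are 6 of the 12 arrays of the series. Females of both genotypes carry the v allele of su(Hw) and differ in the second allele, which is 2 in the sterile and f in the fertile females. The other 6 arrays, 3 from Canton S wild type and 3 from the sterile su(Hw)Pb/2 genotype, were used as a second pair of a sterile and a fertile genotype that shares no array with the first. All ovaries came from virgin females 4 to 6 h old, an age at which egg chambers had reached stage 8 at most according to the design, and the arrest by cell death that follows loss of Su(Hw) begins at stage 9. Each array held RNA from a pool of about 150 pairs of whole ovaries, so p-values measure the spread between pooled samples, which may be technical. The sources used here do not give the lesions of these alleles. In whole ovaries, fewer cells of a type and less RNA per cell cannot be told apart.

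The protein Su(Hw) is a zinc-finger DNA-binding factor best known from the gypsy insulator, where it acts with Mod(mdg4) and CP190 to limit contact between enhancers and promoters. It is required in the ovary for egg chambers to develop beyond mid-oogenesis, and in the germ line it represses genes otherwise used in neurons, of which Rbp9, an RNA-binding protein gene of the Elav family, is the best known. An egg chamber consists of an oocyte and its nurse cells, the germ-line part, inside a layer of somatic follicle cells. Nurse cells make the RNA and protein stored in the oocyte, and follicle cells secrete yolk proteins, the vitelline membrane and finally the chorion.

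Signals are quantile-normalized intensities, and differences are log2 differences of means of 3 arrays on the log2(signal + 16) scale, given with their standard errors as 2/v minus f/v. On this scale, changes of dim genes come out smaller than they are. Background was set at 61.97, the 95th percentile of control probe sets for bacterial transcripts, and 57.8 to 62.9% of probe sets lay above it in these 6 arrays. Arrays of the same genotype correlated at 0.982 to 0.984 and arrays of different genotypes at 0.972 to 0.975. The ovary label was checked against germ-cell and follicle-cell markers. The germ-line genes osk and orb (mean signals 27730.1 and 15470.3 in f/v, 25194 and 14094 in 2/v) and the follicle-cell gene Yp1 (26864 and 26926) were high. The hybridization control CreX read 54744 ± 1727 (SD, n = 3) in f/v and 62124 ± 7238 in 2/v, a ratio of 1.13. Controls were left out of the quantile normalization, which does not use this ratio.

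The su(Hw) transcript read 2912, 2708 and 2591 in the f/v arrays and 85.1, 129 and 81.4 in the 2/v arrays. The groups were far apart, with 2/v lower (-4.61 ± 0.25, adjusted p = 7.3e-07 by limma over all genes). The 2/v arrays lay only just above background. Rbp9 read 2917, 2248 and 2829.6 in the f/v arrays and 9568, 9530.4 and 8411 in the 2/v arrays. It rose in 2/v (1.78 ± 0.11, adjusted p = 1.8e-06), and all 3 sterile arrays lay above all 3 fertile ones, although its second probe set, near background at 96.5 in f/v and 66.2 in 2/v, gave -0.50 and was not called.

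Of 9109 genes tested, 2494 (27.4%) were called at an adjusted p below 0.05, with 1259 higher in 2/v (13.8%) and 1235 lower (13.6%). The arrays did not overlap for 4001 genes (43.9%). A called change of at least 2-fold was seen for 535 genes (5.87%), with 327 higher in 2/v and 208 lower. The balance of higher and lower calls depended on the scaling. Higher genes made up 50.5% of the calls after quantile normalization, and 22.8% (507 higher and 1721 lower) when arrays were scaled to the hybridization controls, which moved the median difference of all genes from -0.01 to -0.20. Small changes below are therefore relative to the bulk of the genes.

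Among the 32 gene lists examined, the chorion genes had the median farthest from 0. The chorion is its outer layer, made by follicle cells at the end of oogenesis, from major chorion proteins whose genes lie in clusters on the X and on the third chromosome. Of 9 chorion gene names 7 were on the array, and all were tested. Of these, 6 fell in 2/v and none rose (85.7% called against 27.4% of all genes). Their median was -2.53 against -0.01 over all genes. The 6 falls were present under each scaling tried. Cp18, Cp16 and Cp19 fell most. Cp18 read 5079, 5424 and 5052 in the f/v arrays and 217.9, 205.1 and 142 in the 2/v arrays (-4.69 ± 0.15, adjusted p = 1.8e-08). Cp16 read 3796, 3803 and 3311 in the f/v arrays and 157, 117 and 188 in the 2/v arrays (-4.44 ± 0.14). Cp19 read 7697, 8559 and 7761 in the f/v arrays and 449.9, 404 and 382 in the 2/v arrays (-4.23 ± 0.09). For each of these genes all sterile arrays lay far below all fertile ones. The neighbouring Cp15 read 10016, 11502 and 11510.1 in the f/v arrays and 1769.7, 1799 and 2121 in the 2/v arrays (-2.53 ± 0.17), and in wild type it was lower still, at 316, 299 and 224. Of the X-linked genes, Cp38 read 3278, 4270.0 and 3271 in the f/v arrays and 815, 840.5 and 896 in the 2/v arrays (-2.05 ± 0.25) and Cp36 read 10213, 10219 and 10566 in the f/v arrays and 3505, 3188 and 3514 in the 2/v arrays (-1.60 ± 0.07). Their falls were smaller than those of the third-chromosome genes but without overlap of the arrays. Cp7Fc, which lies in the X-linked cluster too, read 1567, 1791 and 1438 in the f/v arrays and 1287, 1486 and 1501 in the 2/v arrays. Its arrays overlapped and it was not called (-0.16 ± 0.15, adjusted p = 0.47).

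**Figure D1:**
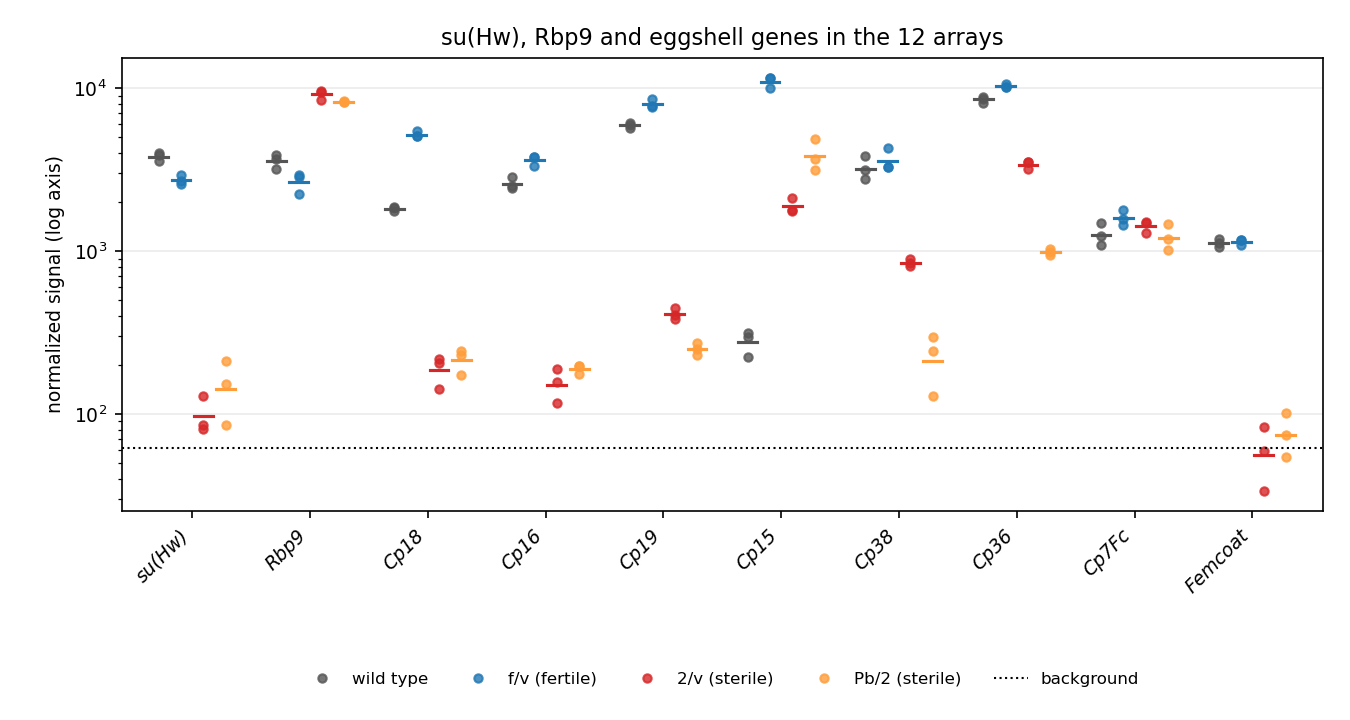
Normalized signal (log axis) of su(Hw), Rbp9, the 7 chorion genes and Femcoat in each of the 12 arrays. Points are arrays, bars are the means of 3 arrays computed on the log2(signal + 16) scale, and the dotted line is background (61.97). The chorion genes other than Cp7Fc were lower in the 2/v arrays than in the f/v arrays, and Cp15 was highest in f/v and lowest in wild type.

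Among 16 tested genes of the vitelline membrane and other eggshell parts, 7 fell and 3 rose (62.5% called against 27.4% of all genes, median -0.33). The same 7 to 3 count was obtained with the values as deposited and with array medians subtracted. Femcoat, an eggshell gene expressed in follicle cells, read 1088, 1166 and 1167 in the f/v arrays and 33.9, 82.8 and 59.2 in the 2/v arrays (-4.01 ± 0.23, adjusted p = 1.1e-06). The sterile arrays lay at or near background. Pxt, a follicle-cell peroxidase needed for eggshell hardening, read 11772, 12083 and 12305 in the f/v arrays and 3862, 4627 and 4749 in the 2/v arrays (-1.45 ± 0.08). Fcp3C, a follicle cell protein gene, read 4812, 4724 and 4879 in the f/v arrays and 1757, 1907 and 1787 in the 2/v arrays (-1.40 ± 0.07). For both genes no 2/v array reached the level of an f/v array. The vitelline membrane gene yellow-g read 1421, 1469 and 1544 in the f/v arrays and 762, 530.2 and 496 in the 2/v arrays (-1.31 ± 0.17). The 3 genes that rose, named after their values were seen, were the vitelline membrane gene Vm26Aa (0.34), the chorion precursor gene dec (0.62) and pip (0.46), a sulfotransferase gene that sets the dorsoventral axis of the embryo. The call of Vm26Aa ended without f/v replicate 3 (0.27), 2/v replicate 2 (0.33) or 2/v replicate 3 (0.32), and pip read 0.12 in its second probe set, which was not called. Scaled to the hybridization controls, only dec of these rose, with 7 genes lower. The vitelline membrane genes Vm34Ca (0.04, from 19674 to 20196) and Vm32E (-0.25) were not called.

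Yolk genes did not follow the chorion genes. Of the 4 genes for yolk proteins and their receptor, 2 rose and none fell (50% called against 27.4% of all genes). Yp2 rose (0.46 ± 0.06, adjusted p = 2.4e-04) from 20313, 21632 and 20593 to 28011, 29413 and 28889. Yp3 read 9585, 10077 and 10167 in the f/v arrays and 11703, 11283 and 11560.4 in the 2/v arrays (0.21 ± 0.06), a call that ended when scaled to the hybridization controls (0.07) and without any 1 of the f/v replicates 1 and 3 (0.19 and 0.23) and the 2/v replicates 1, 2 and 3 (0.20, 0.22 and 0.21). Yp1 (0.00) and the receptor gene yl (-0.13) were not called.

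Among the 15 largest rises, several genes were nearly silent in f/v and strongly expressed in 2/v. Rph encodes rabphilin, a Rab effector of synaptic vesicles. It read 384, 371 and 380.2 in the f/v arrays and 10003, 10205 and 9802 in the 2/v arrays (4.67 ± 0.09, adjusted p = 8.7e-10). The 3 arrays of each group lay within a few percent of each other. The gene nrv3, for a beta subunit of the sodium pump found mainly in neurons, read 1015, 850.1 and 1078 in the f/v arrays and 16456, 17053 and 17914 in the 2/v arrays (4.11 ± 0.10). The sterile arrays again lay far above the fertile ones. GstD2, a glutathione S-transferase gene, read 230.1, 294 and 228 in the f/v arrays and 6494, 6149 and 6462 in the 2/v arrays (4.59 ± 0.15). Alp10, an alkaline phosphatase gene, read 86.6, 16.4 and 16.7 in the f/v arrays and 1349, 1086 and 1344 in the 2/v arrays (4.73 ± 0.45). Only 1 of its f/v arrays lay above background. Zip102B, for a zinc transporter of the ZIP family, read 28.7, 121 and 75.5 in the f/v arrays and 2042, 1982 and 1753 in the 2/v arrays (4.56 ± 0.32). Both were on in all 2/v arrays and low in all f/v ones. This did not divide sterile from fertile ovaries, since both were low in Pb/2 and Zip102B was high in wild type. Cyp6a17, a cytochrome P450 gene, read 50.9, 60.1 and 26.9 in the f/v arrays and 697, 715 and 891 in the 2/v arrays, at least 12.3-fold higher in 2/v because all fertile arrays lay below background. Syn2, a syntrophin-like gene, read 41.6, 16.4 and 35.1 in the f/v arrays and 624, 592 and 632 in the 2/v arrays, at least 9.94-fold higher. Tina-1 read 939, 935 and 983 in the f/v arrays and 12282, 11626 and 10927 in the 2/v arrays (3.58 ± 0.08). Like nrv3, it was well above background in f/v too. Of genes with no given name, CG1695 (from 97.8 to 2768, 4.61 ± 0.15), CG9917 (from 163 to 3288, 4.20 ± 0.23), CG32625 (from 191 to 3613, 4.13 ± 0.14), CG13928 (from 137 to 2276, 3.90 ± 0.14) and CG15760 (from 123 to 1792, 3.70 ± 0.15) rose. CG5111 was below background in every fertile array and at least 8.96-fold higher in 2/v, and tbc at least 3.76-fold.

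The largest fall was that of ss, which encodes the bHLH-PAS transcription factor Spineless, known for its part in antennal and photoreceptor identity. It read 2096, 1976 and 1900.3 in the f/v arrays and 6.97, 11.3 and 1.33 in the 2/v arrays (-6.50 ± 0.15, adjusted p = 1.5e-09), at least 32.1-fold lower in 2/v. All 2/v arrays were far below background, and the f/v arrays lay close together at a high level. The wild type and Pb/2 arrays were far below background too. The gene ss thus passed the filter on low signal through the f/v arrays alone and could be counted only as a fall. The gene e (ebony), an enzyme gene of pigment and amine metabolism in cuticle and brain, read 844, 922 and 735 in the f/v arrays and 36.2, 63.6 and 84.4 in the 2/v arrays (-3.50 ± 0.21). Genes with no given name made up most of the rest. CG42792 read 1536, 1855 and 1807 in the f/v arrays and 120.1, 99.9 and 119 in the 2/v arrays (-3.76 ± 0.14) and CG13083 read 1516, 1800.0 and 1774 in the f/v arrays and 96.6, 118 and 177 in the 2/v arrays (-3.58 ± 0.24). Both stayed above background in 2/v. In CG13084, CG15571, CG31928, CG31926, CG13113 and CG4367 every 2/v array lay below background, with bounds of at least 11.2, 10.9, 8.29, 6.86, 10.2 and 4.74-fold lower in 2/v. CG4367 was below background in all wild type and Pb/2 arrays too. Like ss, it passed the filter through the f/v arrays alone and could be counted only as a fall.

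**Figure D2:**
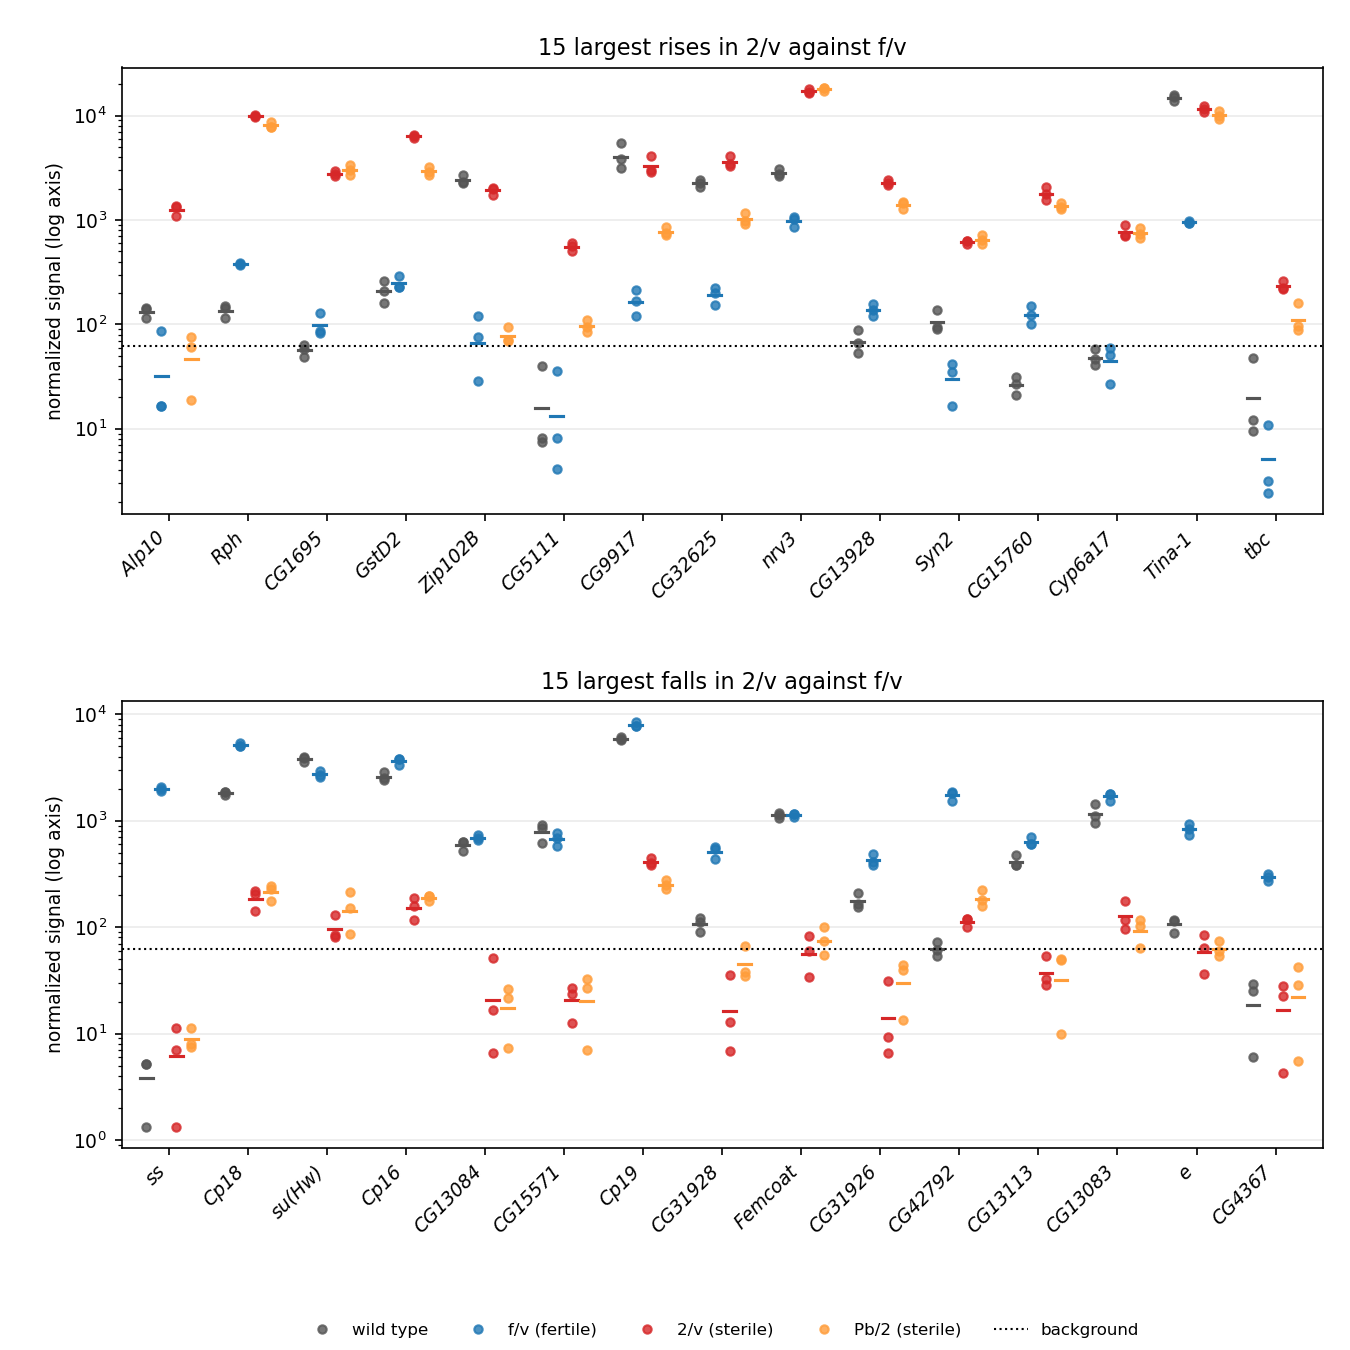
Normalized signal (log axis) of the 15 largest rises (upper panel) and the 15 largest falls (lower panel) in 2/v against f/v, in all 12 arrays. Points are arrays, bars are means computed on the log2(signal + 16) scale, and the dotted line is background (61.97). Genes were ranked by the difference between 2/v and f/v, while the wild type and Pb/2 arrays entered the normalization, filter and estimate of spread. The wild type and Pb/2 points lie with f/v and 2/v in some genes (Rph, nrv3, Cp19). They cross over or side with one of them in others (Zip102B, ss, Alp10).

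The difference between 2/v and f/v can stand for a departure of either genotype, so the wild type and Pb/2 means were placed beside it for the 535 genes changed at least 2-fold. For 242 of them (45.2%) wild type lay nearer to f/v and Pb/2 nearer to 2/v, the pattern in which fertile and sterile ovaries divide. Both sterile genotypes carry the 2 allele and neither fertile genotype does, so sterility and that allele with its chromosome cannot be told apart in this pattern. Of these, 153 were higher and 89 lower in 2/v. For 134 genes (25.0%) both lay nearer to 2/v than to f/v. For 97 (18.1%) both lay nearer to f/v than to 2/v. For the remaining 62 (11.6%) wild type lay nearer to 2/v and Pb/2 nearer to f/v.

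Genes that divided sterile from fertile ovaries included Rph, which read 149, 144 and 114 in wild type and 7772, 7796 and 8668 in Pb/2, and nrv3, which read 2742, 3114 and 2649.7 in wild type and 18525, 18386 and 17321 in Pb/2. Cyp6a17 read 57.9, 46.4 and 41.2 in wild type and 736, 833 and 678 in Pb/2. In all 3 genes both sterile genotypes lay above both fertile ones. Other single genes of this pattern, named after their values were seen, were Mob2 (means 201, 153, 1809 and 1779 in wild type, f/v, 2/v and Pb/2), a kinase-partner gene, and nwk (75.0, 66.0, 649 and 384 in the same order), for an adaptor of membrane traffic at the neuromuscular junction. The same pattern was seen in the neuroligin gene Nlg2 (34.3, 73.0, 492 and 586), whose second probe set was not called (0.13), and the activin-like ligand gene daw (52.1, 77.8, 581 and 277). Among the falls of this pattern were Cp18, Cp16, Cp19, Cp38 and Femcoat.

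Genes with wild type and Pb/2 both nearer to 2/v were led by ss, which read 5.14, 1.32 and 5.15 in wild type and 11.4, 7.45 and 7.95 in Pb/2. Its signal was thus present in f/v alone, through which alone it passed the filter on low signal. The ebony gene e read 114, 88.0 and 118 in wild type and 73.4, 60.1 and 53.5 in Pb/2. Cp15 read 316, 299 and 224 in wild type and 3129, 3675 and 4843 in Pb/2, and its wild type level was at least as far below 2/v as 2/v was below f/v. The metallothionein gene MtnC (means 132, 809, 129 and 181 in wild type, f/v, 2/v and Pb/2) and Arpc1, a subunit gene of the Arp2/3 complex (150.5, 5869.6, 1253 and 1429), were highest in f/v too and were named after their values were seen. Of the rises in this pattern, Tina-1 (14931, 952, 11599 and 10073) and GstZ1 (2719.8, 63.2, 718 and 619) were low in f/v alone. Genes with both nearer to f/v were led by Alp10 (132, 31.7, 1254 and 46.6). They included nAChRalpha2 (23.3, 39.8, 422 and 53.02), for a nicotinic acetylcholine receptor subunit, the ribosomal protein gene RpS10a (249, 485, 3209.8 and 242) and ChAT (46.2, 53.8, 289 and 51.1), for the enzyme that makes acetylcholine. Zip102B showed the remaining pattern, with 2273, 2324 and 2687 in wild type and 68.7, 70.8 and 94.1 in Pb/2.

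The change from wild type to Pb/2 rests on other arrays and was set beside the change from f/v to 2/v. Gut and muscle markers differed more in that pair, since the summed signal of gut genes was 17565 to 19105.0 in wild type and 2456 to 2473 in Pb/2, and that of muscle genes 132048 to 136013 and 71957 to 74412. The sums of nervous tissue, basement membrane, hemocyte, tracheal, fat body and testis genes were also lower in every Pb/2 array than in every wild type array. That of nervous tissue genes was 18194 to 22383 in wild type and 10714 to 13747.5 in Pb/2. The part of these tissues in the differences between both changes was not tested. In Pb/2 against wild type 2870 genes were called (31.5%), with 1445 higher (15.9%) and 1425 lower (15.6%). Of the 1259 genes higher in 2/v than f/v, 458 were also higher in Pb/2 (36.4% of the first list and 31.7% of the second), 194 were lower (15.4%) and 607 were not called. Of the 1235 genes lower in 2/v, 378 were also lower in Pb/2 (30.6% and 26.5%), 197 were higher (15.95%) and 660 were not called. Scaled to the hybridization controls, 1535 genes were called the same way in both pairs, against 836 here. The difference between both changes was tested directly and was called for 2260 genes (24.8%). Among genes higher in 2/v than f/v it was called for 639 (50.8%), among those lower for 577 (46.7%) and among genes not called between 2/v and f/v for 1044 of 6615 (15.8%). Of the 535 genes changed at least 2-fold it was called for 319, and 167 had the opposite sign in Pb/2 against wild type.

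For su(Hw) both changes were nearly equal (-4.61 and -4.60 ± 0.25), with a difference of -0.01 ± 0.35, adjusted p = 0.99. Cp19 (0.24 ± 0.12, adjusted p = 0.18), Femcoat (-0.36 ± 0.33, adjusted p = 0.49), CG13928 (-0.18 ± 0.20, adjusted p = 0.58) and Cyp6a17 (0.12 ± 0.28, adjusted p = 0.796) also had no called difference. Rph rose more from wild type to Pb/2 (5.74 ± 0.09) than from f/v to 2/v, with a difference of -1.08 ± 0.13, adjusted p = 1.7e-04. Cp16, Cp18, Cp19, Cp36 and Cp38 fell in both pairs. The fall of Cp18 was larger between f/v and 2/v (-1.69 ± 0.21, adjusted p = 2.4e-04), and those of Cp36 (1.49 ± 0.09, adjusted p = 1.6e-06) and Cp38 (1.78 ± 0.35, adjusted p = 0.00401) were larger between wild type and Pb/2. Cp15 went the other way and rose from wild type to Pb/2 (3.71 ± 0.17). The widest differences were in Zip102B (9.26 ± 0.45, adjusted p = 2.9e-07), ss (-6.83 ± 0.21, adjusted p = 3.0e-08; below background in all groups but f/v, so a fitted value), CG9917 (6.57 ± 0.33, adjusted p = 3.3e-07) and Alp10 (5.97 ± 0.64, adjusted p = 8.4e-05). The gene tipE, for an auxiliary subunit of sodium channels, rose in both pairs, but by 1.37 ± 0.09 here and by 4.45 ± 0.09 from wild type to Pb/2.

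**Figure D3:**
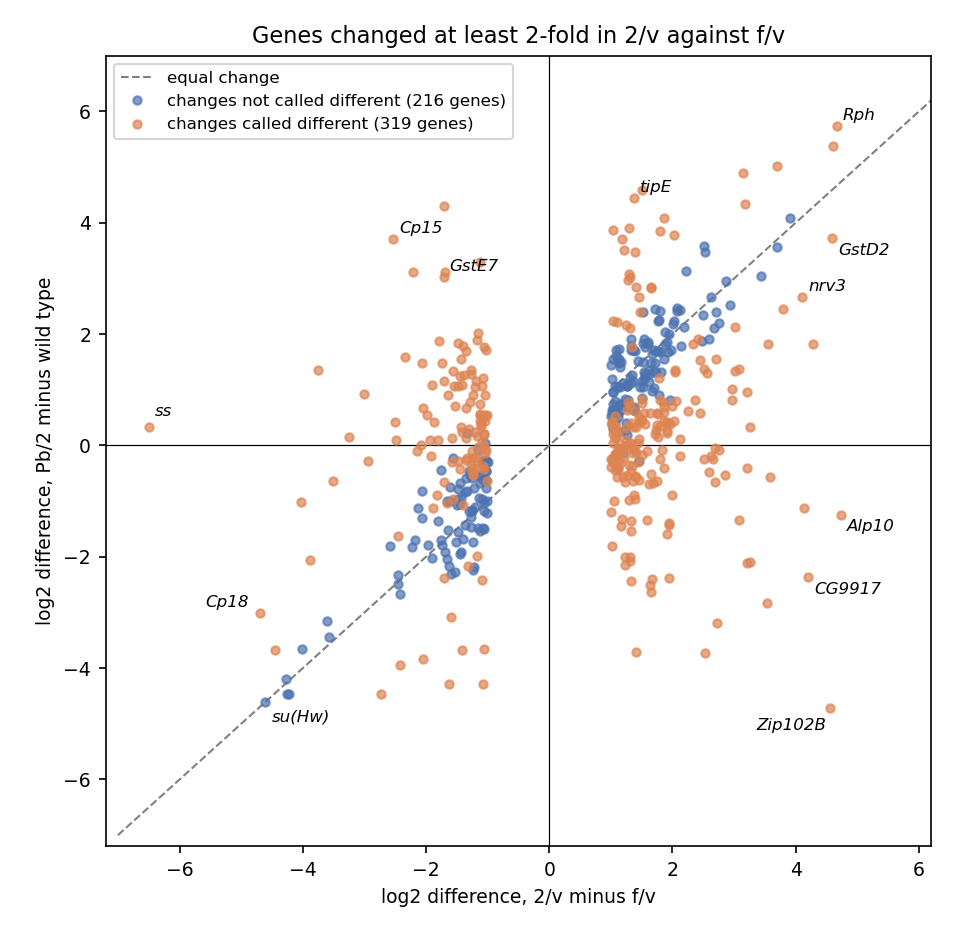
Log2 difference of 2/v minus f/v (horizontal) against Pb/2 minus wild type (vertical) for the 535 genes changed at least 2-fold in 2/v against f/v, each point a gene and each value from 3 arrays per group. Orange points are the 319 genes whose changes were called different, and blue points the other 216. su(Hw), Rph and nrv3 lie on the same side in both pairs, while Zip102B, CG9917, Cp15 and GstE7 lie on opposite sides.

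A family's counts refer to its members above the filter on low signal. That was 15 of 21 synaptic genes on the array, 25 of 31 channel and pump genes, 64 of 83 cytochrome P450 genes, 14 of 17 hemocyte genes, 15 of 19 nervous tissue genes and 11 of 25 testis genes, and in each other list all but at most 3. The 3 arrays of a single genotype are enough to pass this filter. A gene that passed through 2/v alone could be counted only as a rise, and through f/v alone only as a fall. The channel gene nAChRalpha2 would not have passed without the 2/v arrays. Genes for neuronal proteins were looked at by family, given the known repression of such genes by Su(Hw). Of 15 tested genes of synaptic vesicles and transmitter release, 3 rose and 1 fell (median 0.12), a share of 26.7% called against 27.4% of all genes. Besides Rph, the vesicle fusion gene nSyb read 50.4, 15.7 and 29.9 in the f/v arrays and 129, 121 and 97.96 in the 2/v arrays, at least 1.86-fold higher in 2/v. Syt7, below background in every f/v array, was at least 1.09-fold higher in 2/v, and the chaperone gene Csp fell (-0.49 ± 0.13). The call of Syt7 ended with the values as deposited (0.25), with array medians subtracted (0.35) and when scaled to the hybridization controls (0.12). Under each of these scalings, 2 synaptic genes rose and 1 fell. The calls of Syt7 and Csp also ended without single arrays. For Syt7, with a fitted difference of 0.36, these were f/v replicate 1 (0.26), f/v replicate 2 (0.36) and 2/v replicate 1 (0.32), and for Csp f/v replicate 1 (-0.47), f/v replicate 3 (-0.43) and 2/v replicate 3 (-0.45). The active-zone gene brp (-0.18), unc-13 (0.12) and Syn (0.32) were not called. Of 25 ion channel and sodium pump genes, 6 rose and none fell, and 5 still rose and none fell when scaled to the hybridization controls. The share called was 24.0%. These were nrv3, nAChRalpha2, which read 34.0, 43.6 and 42.5 in the f/v arrays and 404, 461 and 403 in the 2/v arrays (at least 6.81-fold higher in 2/v), the pacemaker channel gene Ih, which read 1212, 1211 and 1188 in the f/v arrays and 4760.0, 4929 and 4901 in the 2/v arrays (2.00 ± 0.06), tipE, which read 1421, 1401 and 1402 in the f/v arrays and 3419.7, 3934 and 3645 in the 2/v arrays (1.37 ± 0.09), and 2 calcium channel genes, of which cac (1.33, named after its value was seen) was not called in its second probe set (0.69). The other sodium pump beta subunit genes nrv1 (-0.17) and nrv2 (0.07) were not called. Of 8 genes for Elav-type and other neuronal RNA-binding proteins Rbp9 alone was called (12.5%), and elav read 376 in f/v and 374 in 2/v (-0.01).

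Among 21 insulator and boundary protein genes, 2 rose and 4 fell, su(Hw) included (28.6% called against 27.4% of all genes). With array medians subtracted 1 rose and 2 fell, and with the replicate number as a block 2 rose and 2 fell. The partner gene mod(mdg4) read 3678, 4046 and 3867 in the f/v arrays and 6051, 5979 and 6578 in the 2/v arrays in its brightest probe set (0.68 ± 0.08, adjusted p = 1.1e-04). The array has 22 probe sets for mod(mdg4), which makes many isoforms with different ends. Tested separately, 6 of them rose, 1 fell and 15 were not called. The 1 that fell went from 382 to 92.7 (-1.87 ± 0.08, adjusted p = 2.7e-07 over all probe sets), in the opposite direction to the 6 that rose. The other insulator partner gene, Cp190, read 4509, 3846 and 4327 in the f/v arrays and 2727, 3844 and 3805 in the 2/v arrays. Its arrays did not overlap, by a narrow margin, and it was not called (-0.30 ± 0.13, adjusted p = 0.11). The genes CTCF (0.06), BEAF-32 (-0.15) and Trl (-0.12) were not called either. The gene insv, for a BEN-domain factor, fell (-0.50 ± 0.09), with 1366, 1432 and 1401 in the f/v arrays and 899, 1123 and 953 in the 2/v arrays. Among 20 Polycomb and Trithorax group genes, 2 rose and 5 fell (35% called). Scaled to the hybridization controls, none rose and 5 fell, while 2 rose and 2 fell with array medians subtracted or with the replicate number as a block, and 1 rose and 1 fell with only the arrays compared. The Polycomb gene esc rose (0.44 ± 0.07), a call that ended when arrays were scaled to the hybridization controls (0.25).

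Genes of oocyte patterning were called more often than genes as a whole after quantile normalization, with small changes. Of 32 tested genes for oocyte patterning and mRNA localization, 11 fell and 2 rose (40.6% called against 27.4% of all genes, median -0.12). With array medians subtracted, 5 fell and 1 rose, beside 826 lower and 1211 higher of all 9109 genes. The share called was then not above that of all genes. It stayed above that of all genes under the other scalings. With the values as deposited 11 fell and 1 rose, beside 1359 lower and 1157 higher of all genes. Scaled to the hybridization controls 11 fell and none rose, beside 1721 lower and 507 higher. The largest fall was that of exu, needed to localize bicoid mRNA, which read 5629, 6088 and 6028 in the f/v arrays and 2567, 2919.7 and 3056 in the 2/v arrays (-1.05 ± 0.11, adjusted p = 7.3e-05), although its second, dim probe set was not called (-0.23). The torso receptor gene tor fell less (-0.63 ± 0.16), and its call ended without 2/v replicate 1 (-0.53). The posterior determinant osk (-0.14), grk (-0.11) and orb (-0.13) were not called. Of 31 piRNA pathway genes, which silence transposons in the germ line, 4 rose and 4 fell (25.8% called). The heterochromatin protein gene rhi, which marks piRNA clusters, read 1699, 1672 and 1545 in the f/v arrays and 3621, 3756 and 3536 in the 2/v arrays (1.14 ± 0.07, adjusted p = 2.5e-06), and tej read 4515, 4172 and 4469 in the f/v arrays and 7148, 6921 and 6228 in the 2/v arrays (0.62 ± 0.07). No array of either genotype overlapped the other for these genes, while piwi (0.05) and aub (0.15) were not called. Of 24 meiotic genes, 2 rose and 2 fell (16.7% called). With array medians subtracted, 5 piRNA genes rose and 2 fell. Scaled to the hybridization controls, 2 piRNA genes rose and 5 fell, and none of the meiotic genes rose and 5 fell.

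Of 15 genes of germline stem cell differentiation, 4 rose and 1 fell (33.3% called against 27.4% of all genes), but 1 rose and 4 fell when arrays were scaled to the hybridization controls, so the direction of this list was not fixed. The differentiation factor gene bam read 1271, 986 and 1093 in the f/v arrays and 738, 725 and 742 in the 2/v arrays (-0.59 ± 0.13). Its partner gene tut read 3619.5, 3101 and 3694 in the f/v arrays and 6235, 5108 and 5689 in the 2/v arrays (0.71 ± 0.10). They moved in opposite directions, each without overlap of the arrays.

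Of 30 endocycle and DNA replication genes, 10 fell and none rose (33.3% called, median -0.17), and between 6 and 12 fell and none rose under the other scalings. The count of 6 was obtained with array medians subtracted, where the share called was not above that of all genes. Endocycles are the repeated rounds of DNA synthesis by which nurse and follicle cells become polyploid. The replication kinase gene Cdc7 read 4700.2, 4378 and 4459.9 in the f/v arrays and 1842, 1904 and 1816 in the 2/v arrays (-1.28 ± 0.06, adjusted p = 2.1e-07). The Cdc25-type phosphatase gene twe, which acts in meiosis, read 2359, 1968 and 2494 in the f/v arrays and 1273, 1087 and 859 in the 2/v arrays (-1.08 ± 0.19). SuUR, which holds back replication of heterochromatin, read 1833, 1365 and 1476 in the f/v arrays and 681, 859 and 678 in the 2/v arrays (-1.06 ± 0.13). In all 3 genes the highest 2/v array was below the lowest f/v array. The cyclin gene CycB3 fell by less (-0.49, named after its value was seen).

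Of 20 cell death and autophagy genes, 3 rose and 2 fell (25.0% called), and 2 rose and 3 fell when scaled to the hybridization controls. The caspase gene Strica, known to act in ovarian cell death, read 760.4, 612 and 739 in the f/v arrays and 2068, 1874 and 1980.2 in the 2/v arrays (1.47 ± 0.12, adjusted p = 1.3e-05). Buffy, for a Bcl-2 family protein, read 922, 1108 and 1004 in the f/v arrays and 1818, 1565 and 1539 in the 2/v arrays (0.69 ± 0.10). The TNF ligand gene egr rose as well (0.40, named after its value was seen), a call that ended without f/v replicate 2 (0.33), with the values as deposited (0.38) and when scaled to the hybridization controls (0.20). The giant inhibitor gene Bruce fell (-0.66 ± 0.14), with 1146, 968 and 1151 in the f/v arrays and 539, 831 and 699 in the 2/v arrays, as did the autophagy kinase gene Atg1 (-0.42 ± 0.08). The initiator caspase gene Dronc (0.02) and Dcp-1 (0.13), an effector caspase gene of the germ line, were not called. Of 18 follicle cell genes, 3 fell and none rose (16.7% called). These were the transcription factor genes mirr (-0.62 ± 0.10), whose second probe set was not called (-0.11), cas (-0.64 ± 0.19) and aop (-0.49 ± 0.15). The call of cas ended without f/v replicate 1 (-0.49), f/v replicate 3 (-0.70) or 2/v replicate 1 (-0.47). That of aop ended without f/v replicate 1 (-0.36), f/v replicate 3 (-0.53) or 2/v replicates 1 (-0.50), 2 (-0.51) or 3 (-0.46).

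Detoxification enzymes changed in both directions. Of 32 glutathione S-transferase genes, which conjugate toxic compounds to glutathione, 8 rose and 10 fell, 56.2% called against 27.4% of all genes. The counts were 6 and 10 when scaled to the hybridization controls. GstD2 led the rises, followed by GstZ1, which read 36.1, 79.9 and 83.3 in the f/v arrays and 709.8, 779 and 670.0 in the 2/v arrays (3.21 ± 0.21), and GstE10, which read 462, 557 and 401 in the f/v arrays and 1941, 2032 and 2317 in the 2/v arrays (2.12 ± 0.14). The falls were led by GstE7, which read 2672, 2824 and 3049.7 in the f/v arrays and 985, 876 and 724 in the 2/v arrays (-1.72 ± 0.14). GstE7 and GstE10 thus went opposite ways within a family of similar sequences, for which signal shared between copies was not tested. Several of these genes also differed from the other sterile pair. GstE7 rose from wild type to Pb/2 (3.03 ± 0.14) and GstZ1 fell (-2.11 ± 0.21). Of 64 cytochrome P450 genes, 10 rose and 12 fell (34.4% called). Cyp28d1 read 176, 113 and 134 in the f/v arrays and 679.7, 557 and 617 in the 2/v arrays (2.03 ± 0.15) and Cyp6a23 read 1738, 1252 and 1829 in the f/v arrays and 465, 448 and 573 in the 2/v arrays (-1.65 ± 0.17). Cyp6a23 fell while Cyp6a17 rose, and neither change was called different from that in Pb/2 against wild type (differences of 0.38 ± 0.25, adjusted p = 0.31 and 0.12 ± 0.28, adjusted p = 0.796).

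Of 19 genes of ecdysone synthesis and response, 4 rose and 2 fell (31.6% called), or 3 and 4 when scaled to the hybridization controls. The nuclear receptor gene Hr3 was below background in all f/v arrays and read 98.1, 123 and 121 in 2/v, at least 1.83-fold higher. The related receptor gene ftz-f1 fell (-0.76 ± 0.13), but its second probe set was not called (-0.18). Of 18 genes for antimicrobial peptides and microbe recognition, 3 rose and 2 fell (27.8% called), or 3 and 5 with that scaling. The peptide gene Def read 202, 212 and 101 in the f/v arrays and 797, 633 and 811 in the 2/v arrays (2.08 ± 0.40). The peptidoglycan-cleaving genes PGRP-LB (208, 265 and 219.9 in the f/v arrays and 885, 740.1 and 734 in the 2/v arrays, 1.70 ± 0.13) and PGRP-SB1 (1.41 ± 0.17) rose too. The receptor gene Tl was called lower in its brightest probe set (-0.65 ± 0.14) and read 0.85 in its second, so no direction is given for it. Of 9 stress genes, most of them for heat shock proteins, 4 fell and 1 rose (55.6% called against 27.4% of all genes, median -0.22), or 2 and 1 with array medians subtracted (median 0.02). Hsp26, a small heat shock gene strongly expressed in nurse cells, read 15020.3, 15686 and 14753 in the f/v arrays and 12026, 11517 and 10794 in the 2/v arrays (-0.41 ± 0.08), a call that ended with array medians subtracted (-0.28). The stress gene TotC was below background in every f/v array and at least 9.41-fold higher in 2/v.

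Of 12 insulin and TOR signalling genes, 3 fell and 1 rose (33.3% called against 27.4% of all genes). Scaled to the hybridization controls, 4 fell and none rose. The receptor gene InR read 243, 196 and 251 in the f/v arrays and 134, 92.5 and 108 in the 2/v arrays (-0.96 ± 0.20, adjusted p = 0.0065), and the ligand gene Ilp5 read 66.7, 82.9 and 73.7 in the f/v arrays and 31.1, 8.40 and 16.3 in the 2/v arrays, at least 1.20-fold lower because every sterile array lay below background. Ilp5 was below background in all wild type and Pb/2 arrays too. It thus passed the filter on low signal through the f/v arrays alone and could be counted only as a fall. Cytoplasmic ribosomal protein genes had the lowest share of calls among the 32 lists. Of 88 gene names in this list, only 37 had a single-gene probe set on the array, and 35 were tested. Of the 35 tested, 2 rose and none fell, 5.71% called against 27.4% of all genes. They were RpS10a, which read 419, 550.5 and 494 in the f/v arrays and 3261, 3182 and 3187 in the 2/v arrays (2.69 ± 0.13, adjusted p = 3.1e-07), and the germ-line paralogue RpS19b (0.63 ± 0.14), whose call ended when arrays were scaled to the hybridization controls (0.45). With the values as deposited, 7 of the 35 rose.

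Markers of other tissues that a dissected ovary can carry were examined in the same way. The share called was 72.7% for fat body, 50% for basement membrane, 40% for trachea, 35.7% for hemocytes and 26.3% for muscle, the last close to the 27.4% of all genes. Of 11 fat body genes, 7 fell and 1 rose (3 and 1 with array medians subtracted), and their summed signal was 40224 to 41816 in f/v and 33979 to 34408 in 2/v. The fat body protein gene Fbp1 fell (-0.98 ± 0.08). Of 10 basement membrane genes, 5 fell and none rose (summed signal 63591 to 65447 and 49616 to 56560). The perlecan gene trol fell (-0.72 ± 0.13). Of 14 hemocyte genes, 5 fell and none rose (7959.6 to 8971 and 6646 to 7017). They included NimC1, which read 573, 599 and 545 in the f/v arrays and 125, 193 and 186 in the 2/v arrays (-1.70 ± 0.14). Another was eater, which read 134, 110.1 and 172 in the f/v arrays and 61.4, 46.2 and 17.7 in the 2/v arrays. It was at least 2.20-fold lower because all 2/v arrays lay below background. The hemocyte genes Hml (0.02) and Pxn (-0.13) were not called. Of 10 tracheal genes, 4 fell and none rose (8473 to 9295 and 7042 to 8026). Of 19 muscle genes, 4 fell and 1 rose, or 2 and 1 with array medians subtracted (74154 to 76854 and 67062 to 72774). For each of these 5 lists the summed signal was lower in every 2/v array than in every f/v array. The same held for the testis and germ-cell lists given below, for germ cells by a narrow margin. The part of these tissues in the falls of other genes was not tested.

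The share called was 14.3% for gut markers, 13.3% for nervous tissue, 27.3% for testis, 41.7% for germ cells and 28.6% for ovarian somatic cells, again against 27.4% of all genes. Of 21 gut genes, 2 rose and 1 fell (summed signal 3452 to 4096 in f/v and 3346 to 3709 in 2/v). The trypsin gene alphaTry rose (1.41 ± 0.19) and LManVI fell (-1.63 ± 0.17). Of 15 nervous tissue and glia genes, 2 rose and none fell, namely nSyb and ChAT, and 2 rose and 2 fell when scaled to the hybridization controls. ChAT read 57.1, 86.7 and 29.3 in the f/v arrays and 278, 353 and 244 in the 2/v arrays (2.13 ± 0.37). The summed signal of this list was not raised in 2/v (10985 to 13771 in f/v and 11102 to 12284 in 2/v), and the pan-glial gene repo was below background in both groups (39.1 and 39.1). Of 11 testis genes, 2 rose and 1 fell (3774 to 4287 and 3205 to 3426). Of 12 germ-cell genes, 4 fell and 1 rose, or 1 and 1 with array medians subtracted (94718 to 104219 and 92428 to 94688), and of 14 ovarian somatic genes, 2 rose and 2 fell (70453 to 72718 and 79926 to 81791). The somatic sum was higher in every 2/v array, and the yolk protein genes Yp2 and Yp3 were its members that rose. Scaled to the hybridization controls, 2 gut genes rose and 3 fell, 1 testis gene rose and 3 fell, and 1 ovarian somatic gene rose and 4 fell.

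**Figure D4:**
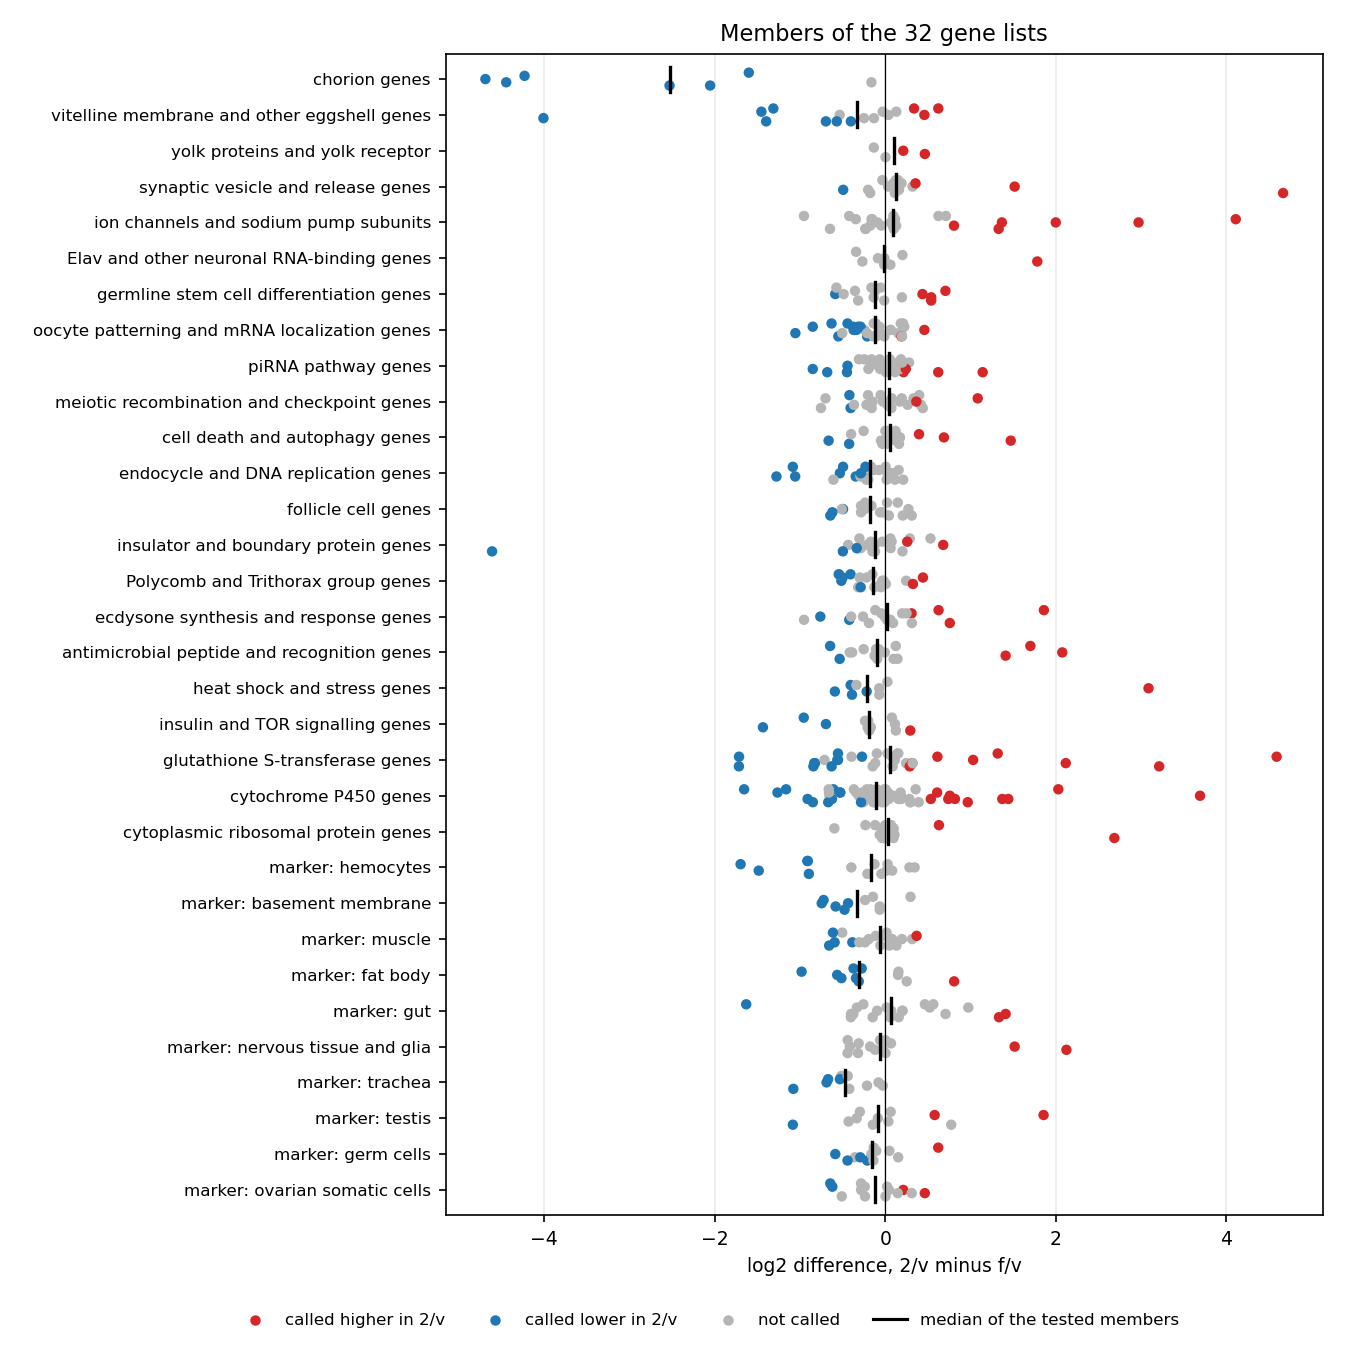
Log2 difference of 2/v minus f/v for the tested members of 32 gene lists, each point a gene (means of 3 arrays per group). Red points were called higher in 2/v, blue points lower and grey points not called, and black bars are list medians. The chorion genes have the lowest median (-2.53), while most lists lie close to the median of all genes (-0.01) with a few members far from it.

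The chromosomes that carry the second su(Hw) allele differ between the genotypes, so the genes around su(Hw) were examined in their annotated order. Of the 10 tested genes nearest to it, 5 on each side, 4 were called (40%), of the nearest 20 genes 7 (35%) and of the nearest 40 genes 12 (30%), against 27.4% of all genes. Of these 12 genes 6 rose and 6 fell, and 6 were called without f/v replicate 1. The largest change was that of Pde6, a phosphodiesterase gene 11 places away, which read 63.2, 38.6 and 30.0 in the f/v arrays and 369.9, 334 and 388 in the 2/v arrays (2.70 ± 0.18, adjusted p = 2.8e-06). CG31313 (1.63) and CG8066 (1.35) rose also. Both were lowest in f/v, with means of 3365, 593, 1863 and 2079.7 for CG31313 and 949, 165, 446 and 601 for CG8066 in wild type, f/v, 2/v and Pb/2.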

How the data were processed

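Ovarian RNA of 4 genotypes (3 arrays each) was hybridized to Affymetrix Drosophila Genome 2.0 arrays. The authors deposited linear intensity values, made with GCOS per the submitters' processing notes; the sources used here give neither its version nor its settings. Tissue labels and protocols name the ovary, while other labels name embryos, and the samples were treated as ovary. The number of arrays limits the precision.

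Of 18952 probe sets 183 controls were removed, and intensity was transformed as log2(signal + 16) and quantile normalized. A probe set was kept where 3 or more of 12 arrays put it above their 40th percentile (12618). Of all probe sets 13647 carried 1 gene (11982 genes), 402 several and 4720 no symbol; 13544 symbols were updated by gene number. Each gene was represented by its brightest single-gene probe set, which left 9109 genes. Group means were fitted to all 12 arrays with limma 3.58.1 in R 4.3.3 (lmFit, eBayes, 8 residual degrees of freedom), and genes were called at a Benjamini-Hochberg adjusted p below 0.05. No sample column was left unmapped (0). Where all arrays of the dimmer group lay below background (27 bacterial control probe sets), a bound is given. Plots used Python 3.11.15 with matplotlib 3.10.9.

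Named genes were su(Hw), Rbp9, the chorion genes, the 15 largest rises and falls without overlap of the arrays, up to 4 called members of each of 32 lists (by size of change), and the 5 greatest rises and falls whose change differed from that in Pb/2 against wild type. That made 131 genes, and others were named after their values were seen. The members and lists were chosen with earlier results of these data known. Lists were described by counts and medians, without a test. Gene order came from the RefSeq annotation of Release 6 plus ISO1 MT, by name; promoter sequences were not used here. Same-numbered arrays were checked for pairing by correlating deviations from group means: the 18 pairs gave -0.153 to 0.0987 (2/v with f/v, -0.029 to -0.0078), so arrays were not paired. Tested on simulated data with 200 of 9109 genes changed, in 5 runs of this comparison, the share of changed genes recovered was 46.0% at a log2 change of 0.5, 78.4% at 1, 96.4% at 2 and 99.6% at 3, with 4.42% false calls. The simulation changed far fewer genes than the 27.4% called in the data. Its noise was drawn independently for each gene after normalization, so these rates do not cover errors of scaling. Alternatives were other scalings, pseudocounts of 1 and 64, other filters, other uses of probe sets, only the arrays compared, other limma settings, a replicate block, an adjusted p below 0.01 and omission of each array.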

Additional observations from a re-analysis of the deposited data

Results flagged for a closer look

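The change from f/v to 2/v and the change from wild type to Pb/2 both set a sterile against a fertile genotype, and the test of their difference was called for 2260 of 9109 genes. Of the named genes called in 2/v against f/v, 80 were among them. The 25 given here singly are those among the largest changes, the chorion genes and Rbp9, and of the other 55 the difference was positive in 40 and negative in 15. Values are log2 differences of the changes, (2/v minus f/v) minus (Pb/2 minus wild type).

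Among genes that rose in 2/v, the difference was largest for Zip102B (9.26), which rose here and fell from wild type to Pb/2. It was 6.57 for CG9917, 5.26 for CG32625 and 4.15 for Tina-1, which also fell from wild type to Pb/2. It was 5.97 for Alp10, whose change in the other pair was not called. The rise was larger here than in the other pair for nrv3 (1.44), GstD2 (0.87) and Rbp9 (0.58). It was smaller here for Rph (-1.08) and CG1695 (-0.77). The fitted difference was 2.45 for CG5111, 1.74 for tbc, 1.35 for Syn2 and -1.32 for CG15760.

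Among genes that fell in 2/v, the difference was -6.83 for ss and -3.40 for CG4367, whose change in the other pair was not called. It was -6.24 for Cp15 and -5.12 for CG42792, which rose from wild type to Pb/2. The fall was larger here for e (-2.86), Cp18 (-1.69) and Cp16 (-0.78). The fitted difference was -3.02 for CG31928 and -1.83 for CG31926. The fall was smaller here for Cp38 (1.78) and Cp36 (1.49). For ss, CG4367, CG31926, CG31928, CG5111, tbc, Syn2 and CG15760 at least 1 group lay wholly below background, so these differences are fitted values that rest partly on signals below background, and no order of both changes is drawn from them.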

How the results depend on the processing

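Scaled to the hybridization controls, 507 genes were higher in 2/v and 1535 were called the same way in both sterile pairs. At an adjusted p below 0.01, 759 genes were higher and 640 lower, 429 were called the same way, 1328 differed between the pairs and 6 of the 40 neighbours of su(Hw) were called. A filter at the 60th percentile, which tests fewer genes, left 311 genes changed at least 2-fold, with 158 dividing sterile from fertile, 86 with wild type and Pb/2 both nearer to 2/v, 35 with both nearer to f/v and 32 in the remaining pattern. A pseudocount of 64, which shrinks low signals, gave 53 genes with both nearer to f/v and 35 in the remaining pattern. Replicates with the same number were not paired; with a replicate block, 1061 genes were higher, 1001 lower, 531 changed at least 2-fold, 688 called the same way and 1906 different, and 7 neighbours were called. Leaving out 1 array gave 982 to 1311 higher genes (lowest without f/v replicate 1), 863 to 1279 lower (lowest without f/v replicate 3), 509 to 543 changed at least 2-fold, 678 to 772 called the same way, 1898 to 2188 different and 6 to 12 neighbours. The 4 patterns ranged over 239 to 248, 118 to 141, 74 to 102 and 56 to 66 genes. The test of the difference could not be run with only the arrays of 2 groups. Of 150 called genes examined singly, 103 kept their call under every alternative that gave a value. Reversed signs came from other probe sets: pip read -0.16 and Tl 0.10 as the mean of their probe sets, Tl read 0.85 in its second, and second probe sets read 0.33 for chif, -0.36 for pum, -0.50 for Rbp9 and 0.18 for spir; the cause was not tested. Of 194 called genes with a second probe set, it had the same sign in 140 (72.2%). Genes below background in both groups have no order.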

Other observations

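Some genes outside the lists and the naming rule, picked after their values were seen, also divided the groups. The neuropeptide-like gene Nplp3 read 424, 389.5 and 357 in the f/v arrays and 27.1, 41.8 and 74.9 in the 2/v arrays (-2.73 ± 0.23, adjusted p = 1.5e-05), and 1334, 1486 and 1578 in wild type, so f/v was intermediate. The nitric oxide synthase gene Nos read 93.4, 66.6 and 81.4 in the f/v arrays and 353, 316 and 362 in the 2/v arrays (1.90 ± 0.20), with 2/v alone high among the 4 genotypes (means 45.5, 79.9, 343 and 66.5 in wild type, f/v, 2/v and Pb/2). The gap gene hb read 656, 554 and 809.6 in the f/v arrays and 308, 303 and 291 in the 2/v arrays (-1.11 ± 0.15), and f/v and Pb/2 were higher than wild type and 2/v (409, 665, 301 and 523). The cadherin gene Cad74A, known for its expression in follicle cells, fell (-1.82 ± 0.18), with 369, 326 and 299 in the f/v arrays and 64.9, 118 and 71.0 in the 2/v arrays. The gene danr, which acts in antennal development as ss does, was highest in f/v (76.7, 449, 94.3 and 77.5).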
